A study of Mus musculus with 12 samples.

Results

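The genes described here make up the machinery of DNA replication and S phase, and comprised 45 genes named by symbol. They were the origin licensing factors, the replicative helicase, the primase and polymerase subunits, the sliding clamp and its loader, the enzymes of nucleotide supply, the factors of strand joining and chromatin assembly, and a few regulators of the G1 to S transition. Of the 45, 44 had a probe set (a group of short probes for a transcript on the array) that the platform gene table assigned to that gene alone, and all 44 passed the filter on low values (an average of 5 or more on the log2 scale across the 12 arrays). Chaf1a was not analysed here. For comparison, 18193 genes had such a probe set in the whole series and 9496 had one past the filter. Each gene was read through 1 probe set, the one with the highest mean, so no measured difference entered the choice of probe set.

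Thymus RNA from mice aged 7 to 8 weeks was hybridised to 12 Affymetrix arrays. Each of the 4 groups held 3 biological replicates. The groups were XX females, XXsry males (XX with Sry), XY- females (XY with a Y chromosome marked as lacking Sry) and XY-sry males (that same XY- complement with Sry). No agent was given in any group. The labels do not say where the added Sry lies or which cells express it. Every group with Sry was male and every group without it was female, so an effect of Sry and an effect of the gonads and their hormones cannot be told apart. The series asks how the sex chromosome complement bears on autosomal genes. All 44 measured replication genes lay on autosomes, on 12 chromosomes, with 9 of them on chromosome 5 (Mcm7, Pole, Rfc1, Rfc2, Rfc3, Rfc5, Tyms, Ung and Slbp) according to RefSeq genes of assembly GRCm38.p6.

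Replication begins in G1, when the origin recognition complex, Cdc6 and Cdt1 load the ring of Mcm proteins onto DNA. At the start of S phase Cdc45 and the GINS complex join that ring to form the moving helicase, primase with DNA polymerase alpha lays the first primers, and polymerases delta and epsilon extend them behind the clamp Pcna. Many of these genes are targets of E2F factors, which cyclin E and its kinase help to free from the retinoblastoma protein. In the thymus most division falls in the late double-negative stage and in the early double-positive blasts that follow, while small double-positive and mature single-positive thymocytes mostly rest.

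The labels held, and 1 array stood apart. Array medians lay between 4.02 and 4.10, in values that had already been scaled to each other. Sry read 6.74 to 7.20 in the 6 arrays labelled with it and 5.23 to 5.65 in the other 6, and Xist and the Y-linked Eif2s3y separated the XX from the XY- arrays without overlap. The thymocyte genes Cd4, Cd8a and Rag1 were high throughout (9.67 to 9.93, 11.25 to 11.52 and 11.78 to 11.96), as fits the labelled tissue. That array was XY- replicate 2, with the highest array median (4.10) and the lowest array weight in limma (0.204). It also had the lowest difference between the 3' and 5' actin control probe sets (0.51, against 0.66 to 0.83 on the other arrays). That difference is a measure of RNA quality, in which a low value is not a mark of degraded RNA.

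Promoter sequences are shown for 7 members whose window holds letters that E2F proteins are known to bind, a sequence feature that the choice of the genes did not use. They were picked for holding such a match wholly before the start of the gene. RefSeq promoter windows (250 bases before to 50 after the start, GRCm38.p6) were held for 36 of the 44 measured genes. An 8-letter E2F match (TTTCCCGC, TTTGGCGC, TTTCGCGC or TTTGCCGC, on either strand, overlaps allowed) occurred in 13 of these 36 genes, or 36.1%. Over all genes with a tested probe set it occurred in 399 of 7772 genes, or 5.13%, and over all 27025 genes with a window in 2.60%. The 13 were Orc1, Cdc6, Cdt1, Mcm3, Mcm5, Mcm6, Mcm7, Gins3, Pold1, Pole2, Rfc3, Lig1 and E2f2. The stretches below run 5′ to 3′ on the gene's own strand and lie before the start, with E2F matches in capitals. Mcm7, Cdc6, Mcm6 and Rfc3 passed the test for the averaged Sry effect given further on, and Orc1, Mcm5 and Gins3 did not.
Mcm7 promoter, chr5:138171884-138172068, - strand: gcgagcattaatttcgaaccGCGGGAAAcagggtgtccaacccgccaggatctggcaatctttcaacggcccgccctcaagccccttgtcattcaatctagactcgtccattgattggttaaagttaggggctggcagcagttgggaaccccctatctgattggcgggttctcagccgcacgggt
Cdc6 promoter, chr11:98907993-98908150, + strand: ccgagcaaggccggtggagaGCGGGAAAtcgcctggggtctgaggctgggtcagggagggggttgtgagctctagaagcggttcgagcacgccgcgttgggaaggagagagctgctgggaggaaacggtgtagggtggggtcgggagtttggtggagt
Mcm6 promoter, chr1:128359706-128359835, - strand: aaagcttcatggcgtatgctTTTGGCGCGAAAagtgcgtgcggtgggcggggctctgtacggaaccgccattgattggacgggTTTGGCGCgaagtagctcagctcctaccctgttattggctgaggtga
Rfc3 promoter, chr5:151651209-151651308, - strand: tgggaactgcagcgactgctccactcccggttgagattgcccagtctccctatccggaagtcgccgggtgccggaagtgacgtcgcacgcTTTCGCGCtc
Orc1 promoter, chr4:108579354-108579453, + strand: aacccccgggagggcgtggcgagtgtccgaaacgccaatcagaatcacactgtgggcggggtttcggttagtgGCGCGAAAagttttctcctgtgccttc
Mcm5 promoter, chr8:75109336-75109508, + strand: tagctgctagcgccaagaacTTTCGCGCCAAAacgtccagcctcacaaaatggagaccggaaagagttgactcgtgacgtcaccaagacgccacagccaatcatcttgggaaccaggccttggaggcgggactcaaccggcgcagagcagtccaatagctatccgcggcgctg
Gins3 promoter, chr8:95633459-95633558, + strand: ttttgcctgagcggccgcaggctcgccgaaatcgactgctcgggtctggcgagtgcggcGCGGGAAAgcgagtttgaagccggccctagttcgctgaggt
In Mcm6 and Mcm5 the run of 12 capitals holds overlapping matches on opposite strands, and Mcm6 has a further match closer to the start. The stretch of Mcm6 thus holds 3 matches and that of Mcm5 holds 2. Mcm7 and Rfc3 each have a further match, not shown, in the part of the window from the start onward. Among members with a window, 7 of the 16 that passed for the averaged Sry effect had a match, and 6 of the 20 that did not. The CCAAT box (CCAAT, either strand) occurred in 21 of the 36 genes, or 58.3%, against 42.7% of genes with a tested probe set. Here the split went the other way, with 7 of the 16 that passed and 14 of the 20 that did not. The cell cycle homology region (TTTGAA, either strand), an element of many mitosis genes, occurred in 6 of the 36, or 16.7%, against 14.3%. It was found in 1 of the 16 that passed and in 5 of the 20 that did not. None of these splits was tested. Such a match is a description of letters and does not show that a factor binds there.

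Replication genes were higher in thymus with Sry than without it, by a small amount and nearly as a block. Averaged over the XX and XY- complements, all 44 had a higher mean with Sry, and 19 of them rose past the threshold (limma, Benjamini-Hochberg adjusted p under 0.05 over the 17925 probe sets tested), while none fell past it. The 19 comprised genes of licensing (Cdc6, Cdt1), the helicase (Mcm6, Mcm7, Mcm10, Cdc45, Gins2), primase and polymerases (Prim1, Prim2, Pola2, Pold1, Pole) and the clamp loader (Rfc1, Rfc3, Rfc5), and Tk1, Lig1, Ung and Chaf1b. The clamp Pcna, the single-strand binding genes Rpa1 and Rpa2 and the 4 regulators did not pass. The fold changes of the 19 called genes lay between 1.106 and 1.224, so that none of the 19 reached a log2 difference of 0.5. Over all probe sets tested, 3.95% were called higher and 2.61% lower, against 43.2% called higher among the 44. The median difference over the 44 was 0.18 on the log2 scale (range 0.013 to 0.292), against a median of 0.017 over all probe sets tested, of which 57.2% were higher with Sry. Unadjusted p was under 0.05 for 35 of the 44.

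The number of calls depended on the arrays used, while the direction of the median difference did not. Leaving out XX replicate 3, XXsry replicate 2, XXsry replicate 3 or XY-sry replicate 3 left 4 calls. Over all probe sets tested these fits called 669, 581, 522 and 537, against 1176 with all 12 arrays. Without XX replicate 1 there were 7, without XY- replicate 3 there were 8, without XY-sry replicate 1 there were 9, and without XY- replicate 1 or XY-sry replicate 2 there were 10. The counts of these fits over all probe sets were 603, 1232, 680, 821 and 1121, in that order. Without XY- replicate 2, the array that stood apart, 26 members were called, and 1744 over all probe sets. The median difference stayed between 0.149 and 0.223 over the 22 alternatives run, some of which tested fewer than 44 members. All 44 had a higher mean with each array centred on its median and with quantile normalization. At an adjusted p under 0.05 Lig1 passed in 22 of 22 alternative fits, Pola2 and Chaf1b in 21 of the 21 that tested them, and Prim2 in 21 of 22, while none of them reached a log2 difference of 0.5.

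**Figure D1:**
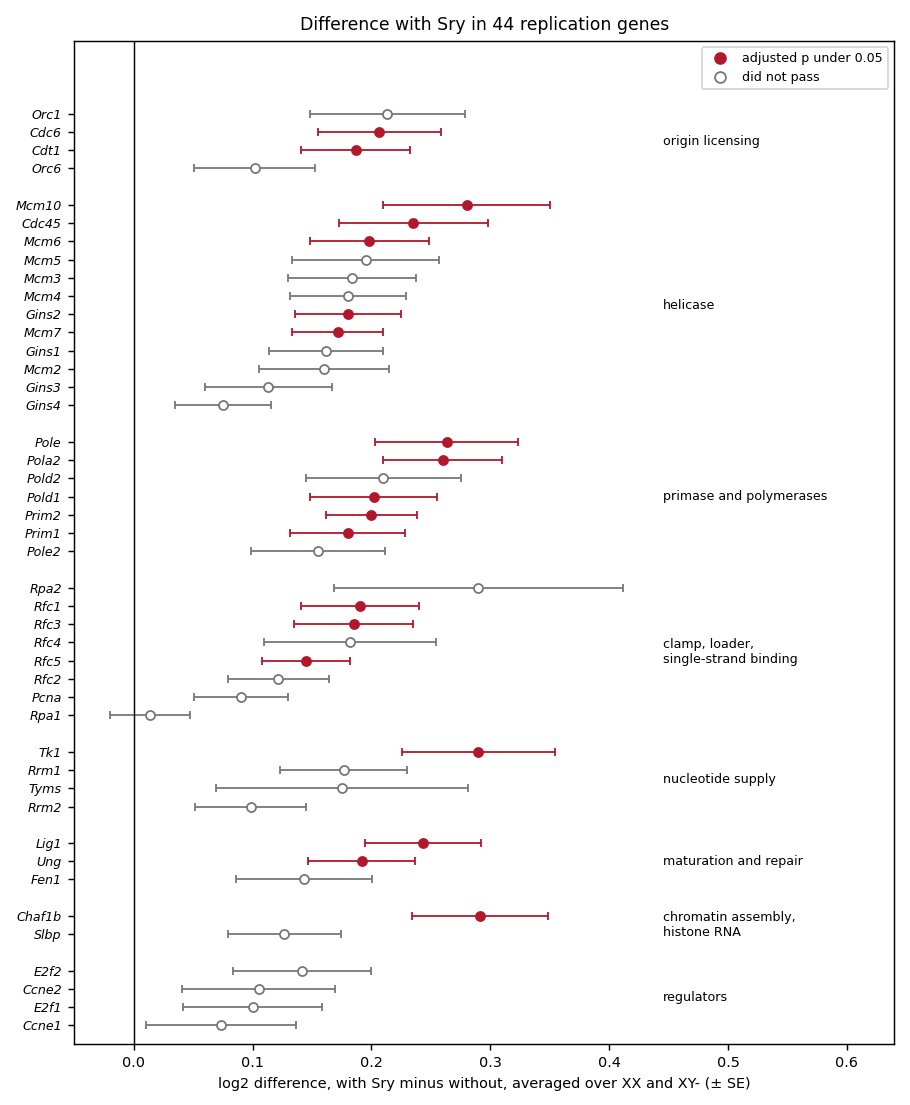
Log2 difference between arrays with and without Sry, averaged over the XX and XY- complements, for the 44 measured replication genes grouped by role (points, with bars of 1 standard error, 6 arrays on each side). Filled points mark the 19 genes with an adjusted p under 0.05. All points lie to the right of 0, from 0.013 for Rpa1 to 0.292 for Chaf1b.

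Array by array, the members moved together. For each array, the mean over the 44 genes of the value minus that gene's 12-array mean was -0.033, 0.014 and -0.144 in the 3 XX arrays and 0.020, 0.124 and 0.070 in the 3 XXsry arrays. It was -0.098, -0.059 and -0.204 in the XY- arrays and 0.035, 0.109 and 0.167 in the XY-sry arrays. Every array with Sry lay above every array without it, though XXsry replicate 1 (0.020) and XX replicate 2 (0.014) nearly met. In the arrays with Sry, 31 to 44 of the 44 genes lay above their own mean, and in those without Sry 0 to 21 did. The lowest array was XY- replicate 3, where 0 of 44 did, and the highest was XY-sry replicate 3, where 44 of 44 did. Single genes overlapped more: in 9 of the 44 (Cdc6, Mcm6, Mcm7, Gins1, Gins2, Prim2, Pola2, Rfc3 and Lig1) each of the 6 arrays with Sry read higher than each of the 6 without, which held for 2.28% of all probe sets tested. The members of an array share its RNA, so their agreement is not a set of independent replicates.

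Among the licensing factors, which prepare origins in G1, 2 of 4 rose. Cdc6, the ATPase that recruits the Mcm ring, read 8.18, 8.22 and 7.99 in XX, 8.23, 8.38 and 8.26 in XXsry, 8.11, 8.12 and 7.96 in XY-, and 8.26, 8.37 and 8.32 in XY-sry. Groups with and without Sry did not overlap, and the averaged difference was 0.21 ± 0.052 (standard error; limma adjusted p = 0.0378). Cdt1, the Mcm loading factor that is destroyed once S phase starts, was 9.60 to 9.76 without Sry (median 9.715, 6 arrays) and 9.76 to 10.03 with it (median 9.875), and differed by 0.19 ± 0.046 (limma adjusted p = 0.0350). Its highest array without Sry equalled its lowest array with it. Orc1, the largest subunit of the origin recognition complex, had a difference of 0.21 ± 0.065 that did not pass (limma adjusted p = 0.0728). A further probe set of Orc1 gave -0.02, so the gene's reading depended on the probe set. Orc6 differed by 0.10 ± 0.051 (limma adjusted p = 0.238).

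Of the 12 helicase genes 5 rose, and the other 7 had a higher mean with Sry without passing. Mcm7, a subunit of the hexameric ring, read 11.09, 11.11 and 10.99 in XX against 11.18, 11.26 and 11.22 in XXsry. In the XY- arrays it read 11.05, 11.09 and 10.96, against 11.20, 11.21 and 11.25 in XY-sry. No array with Sry fell into the range of those without, and the difference of 0.17 ± 0.038 passed (limma adjusted p = 0.0247). Mcm6, another subunit, was 10.14 to 10.38 without Sry (median 10.265) and 10.40 to 10.57 with it (median 10.44), again without overlap, with a difference of 0.20 ± 0.050 (limma adjusted p = 0.0388). Mcm10, which helps to start the assembled helicase, had a larger difference of 0.28 ± 0.071 (limma adjusted p = 0.0386), but its arrays overlapped, at 6.83 to 7.34 without Sry and 7.27 to 7.50 with it. The highest of its arrays without Sry was XX replicate 2.

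Cdc45, which joins the Mcm ring to the GINS complex, was 7.03, 7.09 and 6.92 in XX, 7.16, 7.36 and 7.30 in XXsry, 7.15, 7.11 and 6.92 in XY-, and 7.13, 7.26 and 7.42 in XY-sry. It differed by 0.24 ± 0.063 (limma adjusted p = 0.0477), and only XY- replicate 1 reached above the lowest array with Sry. Gins2, a GINS subunit, was 6.67 to 6.89 without Sry and 6.90 to 7.01 with it, a difference of 0.18 ± 0.045 (limma adjusted p = 0.0361). Its partner Gins1 also separated without overlap (7.38 to 7.61 against 7.62 to 7.75), yet its difference of 0.16 ± 0.048 did not pass (limma adjusted p = 0.0651). Mcm4 lay just outside the threshold at 0.18 ± 0.049 (limma adjusted p = 0.0501), followed by Mcm3 at 0.18 (0.0648), Mcm5 at 0.20 (0.0802) and Mcm2 at 0.16 (0.0992). The smallest differences of the role were those of Gins3 and Gins4, 0.11 ± 0.053 and 0.08 ± 0.040.

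Primase and the polymerases had the largest share of calls among the roles with more than 3 genes, 5 of 7. Prim2, the large primase subunit, had the smallest p of all members. It read 7.51, 7.54 and 7.51 in XX, 7.60, 7.64 and 7.58 in XXsry, 7.55, 7.40 and 7.45 in XY-, and 7.75, 7.74 and 7.85 in XY-sry. The XY-sry arrays were the highest group and the XXsry arrays lay between them and the arrays without Sry, with an averaged difference of 0.20 ± 0.038 (limma adjusted p = 0.0130). Pola2, the regulatory subunit of polymerase alpha, was 7.69, 7.67 and 7.57 in XX, 7.77, 7.87 and 7.88 in XXsry, 7.60, 7.65 and 7.41 in XY-, and 7.79, 7.92 and 7.92 in XY-sry. Here both groups with Sry stood above both groups without it, by 0.26 ± 0.050 (limma adjusted p = 0.0140).

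Pole, the catalytic subunit of the leading strand polymerase epsilon, was 7.31 to 7.49 without Sry (median 7.39) and 7.49 to 7.83 with it (median 7.655), and rose by 0.26 ± 0.060 (limma adjusted p = 0.0278). Pold1, the catalytic subunit of polymerase delta, rose by 0.20 ± 0.053 (limma adjusted p = 0.0457), with more overlap (8.05 to 8.37 against 8.30 to 8.51). Prim1, the catalytic primase subunit, was 8.71 to 8.90 without Sry and 8.85 to 9.12 with it and rose by 0.18 ± 0.049 (limma adjusted p = 0.0493). Pold2 and Pole2, accessory subunits of polymerases delta and epsilon, differed by 0.21 ± 0.065 and 0.16 ± 0.056 and did not pass (limma adjusted p = 0.0749 and 0.118).

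The clamp, its loader and the single-strand binding proteins were the least even role, with 3 of 8 called and both the largest standard error and the smallest difference of the 44. Pcna, the sliding clamp, read 11.99, 12.01 and 11.91 in XX, 12.11, 12.05 and 12.04 in XXsry, 11.97, 12.06 and 11.88 in XY-, and 12.06, 12.03 and 12.07 in XY-sry. Its difference of 0.09 ± 0.040 did not pass (limma adjusted p = 0.185), and XY- replicate 2 reached the XY-sry range. In the replication factor C loader, which opens the clamp, Rfc1 rose by 0.19 ± 0.050, Rfc3 by 0.19 ± 0.050 and Rfc5 by 0.15 ± 0.037 (limma adjusted p = 0.0440, 0.0495 and 0.0415). Rfc3 separated without overlap, at 7.20 to 7.44 without Sry and 7.48 to 7.59 with it. Rfc2 and Rfc4 differed by 0.12 ± 0.042 and 0.18 ± 0.072 and did not pass (limma adjusted p = 0.104 and 0.146).

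Rpa1 and Rpa2 encode subunits of replication protein A, which coats single-stranded DNA. Rpa1 read 10.77, 10.78 and 10.75 in XX, 10.71, 10.77 and 10.67 in XXsry, 10.71, 10.68 and 10.72 in XY-, and 10.75, 10.76 and 10.83 in XY-sry, so that its means went down with Sry in XX and up in XY-. The averaged difference was 0.01 ± 0.034 (limma adjusted p = 0.852), with a 95% interval from -0.06 to 0.087. Rpa2 had a difference of 0.29 ± 0.121 (limma adjusted p = 0.164). Its lowest array was XY- replicate 1 at 7.15, while the other XY- arrays read 7.94 and 7.89 and the XX arrays 8.05, 8.15 and 7.82.

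Of the 4 genes of nucleotide supply only Tk1 passed. Tk1, the S phase thymidine kinase of the salvage pathway, read 7.93, 7.92 and 7.78 in XX, 8.08, 8.32 and 8.17 in XXsry, 7.94, 8.07 and 7.75 in XY-, and 8.07, 8.25 and 8.24 in XY-sry. XY- replicate 2 tied with the lowest array with Sry, and the difference was 0.29 ± 0.064 (limma adjusted p = 0.0243). Rrm1 and Rrm2, the subunits of ribonucleotide reductase, differed by 0.18 ± 0.053 and 0.10 ± 0.047 (limma adjusted p = 0.0695 and 0.217). Tyms, the thymidylate synthase, has a pseudogene copy that its probes may also read, so its values are uncertain. Of the 4 it had the largest standard error, with XY- arrays from 5.48 to 6.07, and it differed by 0.18 ± 0.106 (limma adjusted p = 0.334).

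Among genes of strand maturation and repair 2 of 3 rose. Lig1, the ligase that joins Okazaki fragments, read 8.91, 8.95 and 8.84 in XX, 9.07, 9.26 and 9.04 in XXsry, 8.90, 8.93 and 8.79 in XY-, and 9.07, 9.15 and 9.19 in XY-sry. Arrays with and without Sry did not overlap and the step was alike in both complements, with an averaged difference of 0.24 ± 0.048 (limma adjusted p = 0.0162). Ung, the uracil DNA glycosylase that clears misincorporated uracil, read 6.57, 6.66 and 6.49 in XX, 6.53, 6.62 and 6.64 in XXsry, 6.37, 6.19 and 6.31 in XY-, and 6.62, 6.70 and 6.63 in XY-sry. Only the XY- group stood apart, and the averaged difference was 0.19 ± 0.045 (limma adjusted p = 0.0299). Fen1, the flap endonuclease, differed by 0.14 ± 0.057 (limma adjusted p = 0.149).

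Chaf1b, a subunit of the chromatin assembly factor that deposits histones behind the fork, had the largest averaged difference of the 44. It read 7.03, 7.00 and 6.82 in XX, 7.01, 7.28 and 7.19 in XXsry, 6.73, 6.85 and 6.78 in XY-, and 7.07, 7.24 and 7.17 in XY-sry. The only overlap was that XX replicate 1 exceeded XXsry replicate 1, and the difference was 0.29 ± 0.057, a fold of 1.224 (limma adjusted p = 0.0152). Slbp, which binds the stem-loop of histone mRNA, differed by 0.13 ± 0.048 (limma adjusted p = 0.128), and its further probe set gave -0.02.

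None of the 4 regulators passed. E2f2, an activator E2F, had the smallest p with a difference of 0.14 ± 0.058 (limma adjusted p = 0.158), but its further probe set, which was also well expressed (mean 8.27), gave -0.06. The other activator, E2f1, differed by 0.10 ± 0.059, and the cyclins Ccne1 and Ccne2, which start S phase with their kinase, by 0.07 ± 0.063 and 0.11 ± 0.064 (limma adjusted p = 0.318, 0.508 and 0.337). Ccne2 overlapped fully, at 6.98 to 7.35 without Sry and 7.18 to 7.30 with it.

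**Figure D2:**
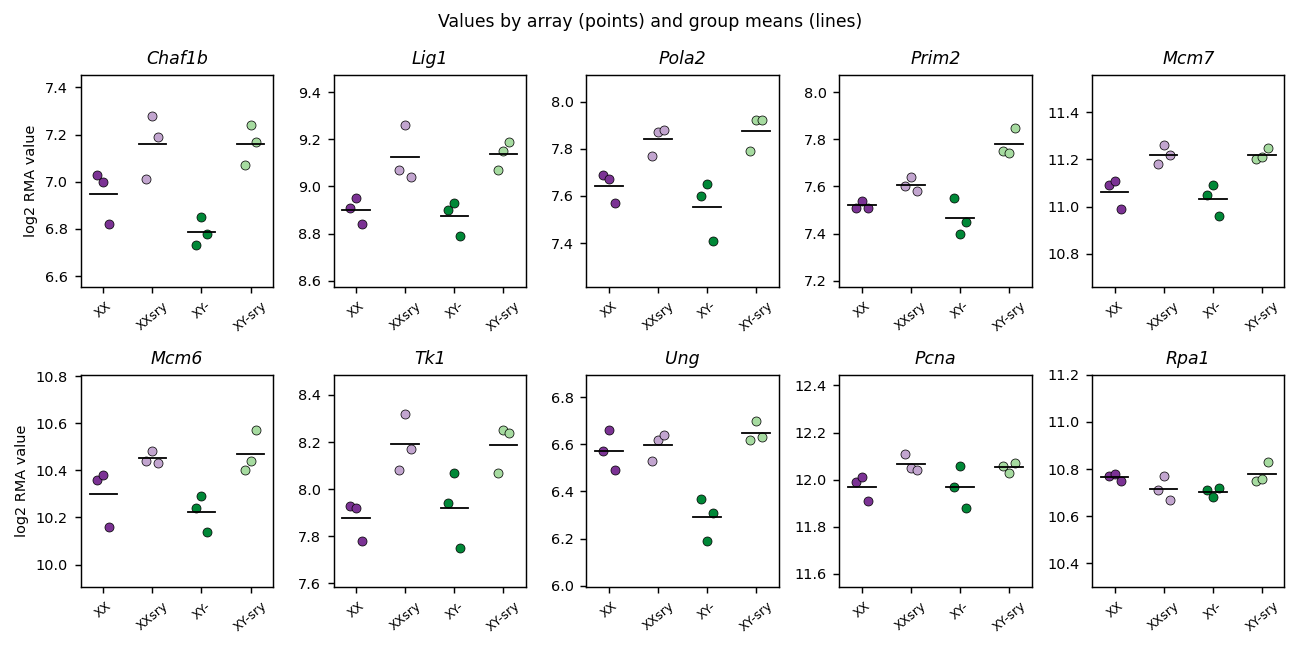
Deposited log2 RMA values of 10 members on each array (points) with group means (lines), for XX, XXsry, XY- and XY-sry with 3 arrays each; every panel spans 0.9 log2 units. Lig1, Pola2, Prim2, Mcm7 and Mcm6 show no overlap between arrays with and without Sry, Ung is low in the XY- group alone, and Rpa1 is level.

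Other probe sets of the same genes mostly moved the same way. Of 96 probe sets assigned to the 44 genes alone, 75 passed the filter, and beyond the 44 used there were 31, in 26 genes. Of these 31, 28 were higher with Sry and 3 lower (those of Orc1, Slbp and E2f2), and 8 passed the test. Of the 10 called genes with a further probe set, 4 had it called too (Cdt1, Mcm7, Gins2 and Rfc3). In 4 genes not called above, a further probe set passed: Mcm2 at 0.20 ± 0.050, Mcm3 at 0.25 ± 0.066, Mcm5 at 0.25 ± 0.066 and Rrm2 at 0.23 ± 0.049 (limma adjusted p = 0.0417, 0.0480, 0.0436 and 0.0217). Counted over any probe set, 23 of the 44 genes had a call. Probe sets of 1 gene opposed each other by over 0.2 for Orc1 and E2f2 in the averaged effect and in XY-, for Cdc45 in XY- (0.21 and -0.12) and for Mcm4 (0.13 and -0.09) and Slbp (0.09 and -0.15) in XX. Orc1 also did so for XX minus XY- without Sry and for the interaction, and E2f1 for XX minus XY- with Sry.

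Within the XY- complement the Sry difference was larger than within XX for most members, though the difference between the complements was not established for any of them. From XY- to XY-sry all 44 had a higher mean and 10 rose: Cdt1, Mcm10, Prim1, Prim2, Pola2, Pold1, Rfc5, Lig1, Ung and Chaf1b, all of them among the 19 above. The median difference was 0.23 (range 0.067 to 0.483), against 0.043 over all probe sets, of which 4.27% were called higher and 62.3% had a higher mean. Prim2 rose by 0.31 ± 0.054, Ung by 0.36 ± 0.064, Rfc5 by 0.26 ± 0.053 and Mcm10 by 0.40 ± 0.10 (limma adjusted p = 0.00773, 0.00872, 0.0139 and 0.0310). For Chaf1b, Pola2, Pold1 and Lig1 the values were 0.37 ± 0.081, 0.32 ± 0.071, 0.32 ± 0.075 and 0.26 ± 0.069 (limma adjusted p = 0.0178, 0.0188, 0.0254 and 0.0366). Cdt1 and Prim1 rose by 0.24 ± 0.065 and 0.25 ± 0.069 (limma adjusted p = 0.0404 and 0.0427).

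These 10 calls were less stable than the direction. Fitting the 2 groups alone, or adjusting for the actin difference between 3' and 5' control probe sets, left 0 calls in XY-. Over all probe sets tested, calls in XY- fell from 1549 to 72 and to 54 in these fits, so the loss was not particular to the members. The actin adjustment moved the median difference of the members up to 0.305. That actin difference itself was 0.51 to 0.69 in XY- and 0.74 to 0.83 in XY-sry, without overlap, and its part in the result was not tested beyond that fit. The count was 5 without XY- replicate 1, 5 without XY- replicate 3, 6 without XY-sry replicate 2 and 2 without XY-sry replicate 3. Over all probe sets it was 1122, 1455, 1391 and 539, in that order.

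From XX to XXsry, 42 of 44 had a higher mean and none passed. With limma, 10 had an unadjusted p under 0.05, and 0.391% of all probe sets were called higher. The median was 0.135 (range -0.05 to 0.313), against 0.000 over all probe sets. Tk1 had the largest difference, 0.31 ± 0.091 (limma adjusted p = 0.187), followed by Cdc45 at 0.26 ± 0.089, Pole at 0.24 ± 0.085 and Lig1 at 0.22 ± 0.069. Rpa1 and E2f1 had lower means, at -0.05 ± 0.048 and -0.03 ± 0.083. The 95% interval included 0 for 34 of the 44. Over the alternatives run the median lay between 0.0758 and 0.171.

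**Figure D3:**
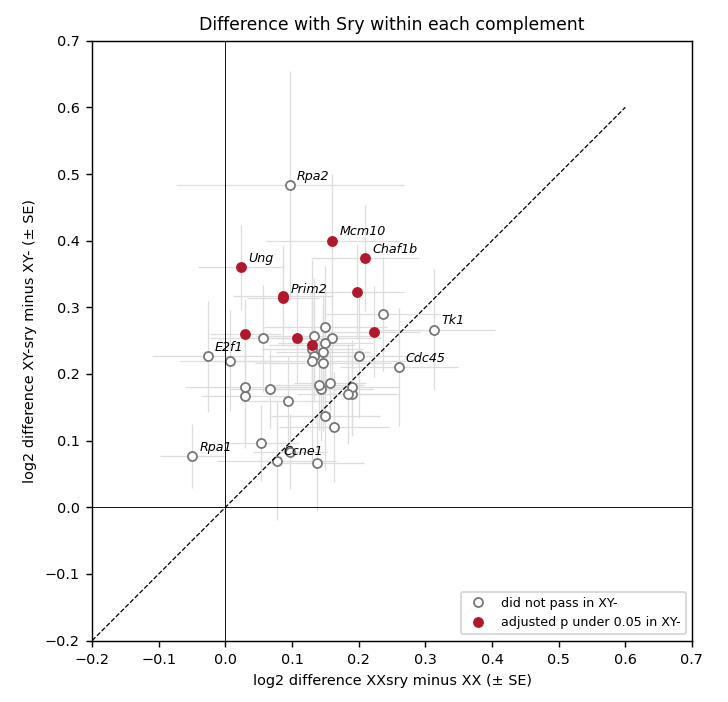
Log2 difference with Sry within XX (horizontal, XXsry minus XX) and within XY- (vertical, XY-sry minus XY-) for the 44 members, with bars of 1 standard error and 3 arrays in each group; the dashed line marks equal differences. Of the 44 points 34 lie above the line, and the 10 filled points passed in XY- while none passed in XX.

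The test of that contrast is the interaction, the Sry difference in XX minus that in XY-. It was below 0 for 34 of the 44 and above 0 for 10, with a median of -0.09 (-0.182 to -0.0425 over the alternatives run) against a median of -0.04 over all probe sets, of which 37.1% were above 0. With limma no member passed, 3 had an unadjusted p under 0.05, and 1.29% of all probe sets were called. The smallest p was that of Ung, at -0.34 ± 0.090 (limma adjusted p = 0.105), followed by Rfc5 at -0.23 ± 0.075 (0.190) and Prim2 at -0.23 ± 0.076 (0.208). In the other roles the smallest p belonged to Cdt1 (-0.11), Gins3 (-0.21), Rrm2 (-0.14), Chaf1b (-0.16) and E2f1 (-0.25), with limma adjusted p between 0.380 and 0.654. The 95% intervals were wide, from -0.917 at the lowest to 0.374 at the highest, and lay within 0.5 of 0 for 39 of the 44.

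The sex chromosome complement, the subject of the series, moved none of the 44 past the threshold. Averaged over Sry, 30 members had a higher mean in XX and 13 in XY-, while Rpa1 was equal, with a median difference of 0.02. Over all probe sets 54.7% had a higher mean in XX, and 0.0893% were called in either direction. The members' median ran from -0.0067 to 0.045 over the alternatives run, so its direction was not settled. With limma 1 member had an unadjusted p under 0.05. The 95% intervals ran from -0.202 to 0.418, and for 43 of the 44 they lay within 0.3 of 0, the exception being Rpa2. Without Sry (XX minus XY-) 37 members had the higher mean in XX and 6 in XY-, against 60.6% of all probe sets higher in XX, with a median of 0.06 (0.0125 to 0.0983 over the alternatives run). No member passed, 2 had an unadjusted p under 0.05, the smallest adjusted p was that of Ung (0.28, limma adjusted p = 0.216), and 0.0781% of all probe sets were called. With Sry (XXsry minus XY-sry) 11 had the higher mean in XXsry and 30 in XY-sry, against 43.0% of all probe sets higher in XXsry, with a median of -0.03 (-0.0658 to 0.0025 over the alternatives run). Again no member passed, 1 had an unadjusted p under 0.05 (Prim2, -0.17, limma adjusted p = 0.30), and 0.128% of all probe sets were called. The comparisons with and without Sry and the interaction use the same 12 arrays, so they are not independent of the Sry differences above.

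**Figure D4:**
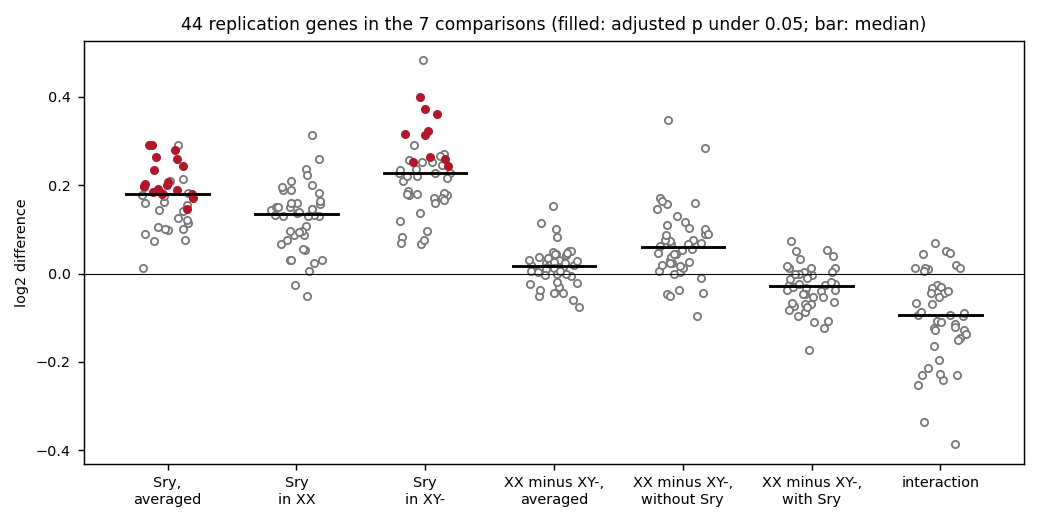
Log2 differences of the 44 members (points) in each of the 7 comparisons, with the median as a bar and calls at an adjusted p under 0.05 filled; horizontal positions within a column are random. Calls appear in the averaged Sry effect (19) and in the Sry effect in XY- (10), and the 3 comparisons of XX with XY- are centred between -0.03 and 0.06.

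The rest of the replication pathway was read from a list of 46 further genes, 43 of which were tested (Mcm8 lay below the filter). For the averaged Sry effect 38 of 43 had a higher mean, 4 rose and none fell, with a median of 0.15. The calls were 9.3% of those tested, against 3.95% of all probe sets called higher and 57.2% with a higher mean. The 4 were Dnmt1, the methyltransferase that copies DNA methylation at the fork (0.23 ± 0.048), Clspn, an adaptor of the replication checkpoint (0.22 ± 0.052), Cdca7 (0.20 ± 0.053) and Topbp1, which takes part in origin firing and checkpoint signalling (0.15 ± 0.040), with limma adjusted p = 0.0195, 0.0305, 0.0446 and 0.0493. The count was 6 with each array centred on its median and 2 with quantile normalization. In XY- 5 rose (Dnmt1, Clspn, Dna2, Topbp1 and Rnaseh2a), or 11.6%, against 4.27% of all probe sets called higher there. In XX none passed, with 5 at an unadjusted p under 0.05 in limma.

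Regulators of the G1 to S step, 24 genes besides the members, changed in both directions, with 4 higher, 2 lower and a median of 0.05. Over all probe sets 3.95% were called higher and 2.61% lower. Cdk6, a kinase of the cyclin D complexes, rose by 0.32 ± 0.047, and Tfdp2, a DNA binding partner of E2F proteins, by 0.29 ± 0.049 (limma adjusted p = 0.00326 and 0.00685). Cdk2, the kinase partner of cyclin E, rose by 0.18 ± 0.045 and E2f8, a repressor E2F, by 0.17 ± 0.046 (limma adjusted p = 0.0354 and 0.0483). The kinase inhibitors Cdkn1a (p21) and Cdkn1b (p27) fell by 0.16 and 0.28 on the log2 scale (limma adjusted p = 0.0284 and 0.0492). Among the members, the other replication genes, this list and the mitosis genes, only Tfdp2 was called in XX, at 0.37 ± 0.070 (limma adjusted p = 0.0358). Under the scaling alternatives 3 of this list rose in each, and 1 fell with median centring and 2 with quantile normalization.

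Genes of mitosis, which act after S phase, differed in the same direction without calls. Of 32 tested 31 had a higher mean with Sry, against 57.2% of all probe sets, and the median was 0.13. None passed in limma, and 17 had an unadjusted p under 0.05. With each array centred on its median 1 passed. No test compared them with the replication genes, whose median was 0.18.

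Markers of thymocyte stages and of other cells moved with Sry as well. The shares to compare, over all probe sets tested, are 3.95% called higher with Sry and 2.61% called lower. Of 9 tested markers of mature single-positive thymocytes, 6 were lower with Sry and none higher, with a median of -0.28. Ms4a4b, Il7r and Ccl5 fell by 0.58, 0.52 and 0.50 on the log2 scale. The mean over that list was 0.070 to 0.333 on the arrays without Sry and -0.254 to -0.086 on those with it, without overlap. Of 8 tested double-negative markers 3 were higher (Il2ra by 0.56, Notch1 and Notch3 by 0.31 each) and 2 lower (Cd44, and Il7r, which mature cells share), and the mean over the list was -0.206 to 0.141 without Sry and 0.010 to 0.094 with it. Of 9 double-positive markers 1 was lower (Rag2) and none higher. In B cell markers 4 of 6 were lower, with a median of -0.51, and in neutrophil markers none of 5 passed with a median of -1.08. In dendritic cell and macrophage markers 7 of 7 had a lower mean with a median of -0.15, and none passed. Both tested markers of the parathyroid, a gland that lies close to the thymus, were higher with Sry, by more than any replication gene. Pth, the parathyroid hormone, rose by 1.02 ± 0.179 and Chga by 0.63 ± 0.117 (limma adjusted p = 0.00838 and 0.0113). Pth read 5.17 to 6.01 in XX, 6.99 to 7.13 in XXsry, 5.97 to 6.42 in XY- and 6.37 to 7.37 in XY-sry. Both were also called in XX, where 0.391% of all probe sets were called higher, with a median difference of 1.17, and neither passed in XY-. None of the 8 epithelial, 2 fibroblast and vessel, 2 fat or 1 erythroid markers tested passed. In bulk tissue fewer cells of a type and less RNA per cell cannot be told apart, and the part of these lists in the differences of the replication genes was not tested.

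**Figure D5:**
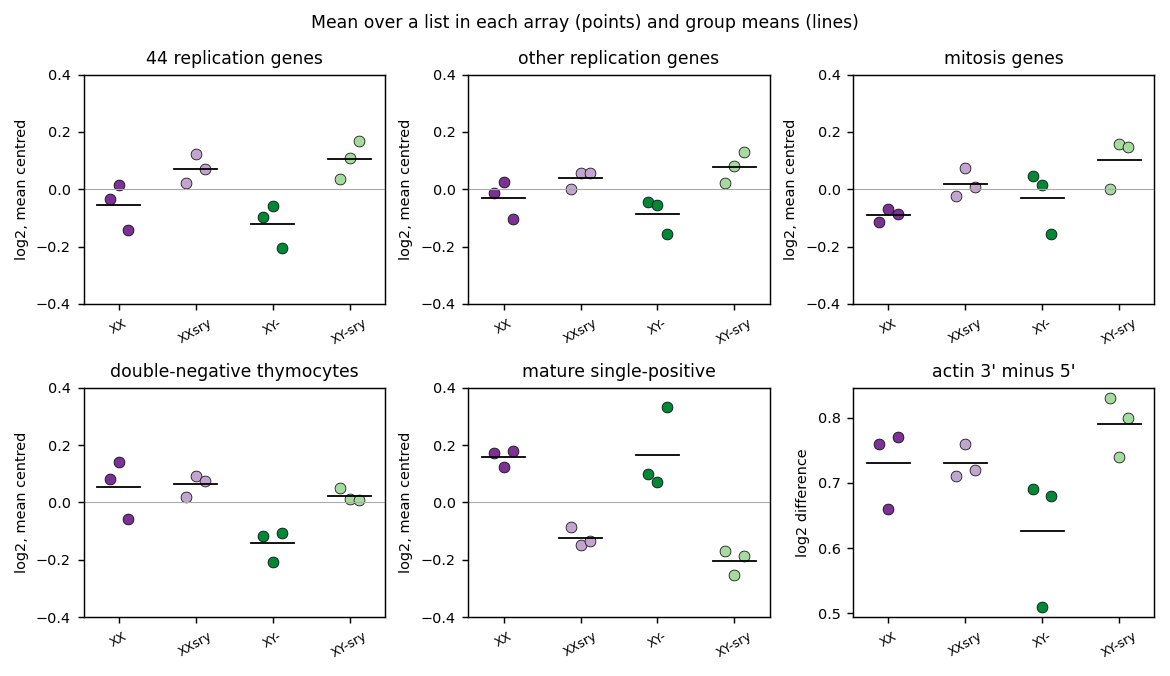
Mean over a gene list on each array after centring each gene on its 12-array mean (points, log2), with group means (lines), for the 44 replication genes, other replication genes, mitosis genes, double-negative markers and mature single-positive markers; the last panel shows the actin 3' minus 5' difference. The 44 genes are higher in every array with Sry (0.020 to 0.167) than without (-0.204 to 0.014), and the mature single-positive markers are lower (-0.254 to -0.086 against 0.070 to 0.333).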

How the data were processed

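Thymus RNA of 12 mice was measured on 1-colour Affymetrix arrays, 3 biological replicates per group per the series' design. The authors deposited a table of log2 values per probe set, made by RMA per the submitters' processing notes, for which no version is stated there. RMA scales arrays to each other, so a shift common to all genes is removed.

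The table held 45101 probe sets. Leaving out 64 controls and all probe sets averaging under 5 (log2) across the 12 arrays, 17925 were tested. Genes were named through the platform gene table: 34945 probe sets had 1 gene symbol, 932 several and 9160 none after controls were set aside. Members were found by symbol, with the probe set of the highest mean standing for a gene. The 4 group means were fitted together in R 4.3.3 with limma 3.58.1 (8 residual and 3.71 prior degrees of freedom), and 7 contrasts were tested with Benjamini-Hochberg adjustment over all probe sets tested. The fit was tested on simulated data. Promoter windows are RefSeq's, GRCm38.p6.

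The members, the other gene lists, the motifs and the tests were chosen with earlier results of these data known. Genes named are members past the threshold, those with the smallest p of a role for the averaged Sry effect and the interaction, members whose probe sets differ in direction by over 0.2, and the passing genes of the lists; other names were chosen after their values were seen. Alternatives covered the filter, scaling, variance model, array weights, the groups fitted, the replicate number as a block, the actin difference as a covariate, the probe set rule, the threshold and each array left out in turn. The number of arrays limits the precision. Figures were drawn with matplotlib 3.10.9.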

Additional observations from a re-analysis of the deposited data

How the results depend on the processing

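For the averaged Sry effect, 19 members were called as reported. The count was 4 with no filter on low values, 10 with quantile normalization, 31 with array weights and 0 when a log2 difference of at least 0.5 was required, and leaving out 1 array at a time gave 4 to 26. Median centring (22), an intensity trend with robust settings (24), a filter at 6 (20), 1 probe set per gene (20), averaging all probe sets of a gene (16), the actin covariate (14) and an adjusted p under 0.1 (27) stayed within 1.5 times. Over all probe sets 1176 were called as reported, 692 with no filter, 1202 with quantile normalization and 4361 with array weights. Leaving out 1 array at a time gave 522 to 1744 over all probe sets.

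For the Sry effect in XY-, with 10 calls as reported, the count was 23 at an adjusted p under 0.1, 0 with a log2 difference of at least 0.5, 5 with no filter, 20 with median centring, 6 with quantile normalization, 17 with an intensity trend and robust settings, 26 with array weights, 0 with only the groups compared and 0 with the actin covariate. A filter at 6 and averaging all probe sets of a gene gave 15 each, and leaving out 1 array at a time gave 2 to 14. Over all probe sets 1549 were called in XY- as reported, 72 with only the groups compared and 54 with the actin covariate. Median centring called 1872 and array weights 4245. With array weights, 4 members were called for the Sry effect in XX, 4 for XX minus XY- without Sry and 2 for the interaction, where the other alternatives run gave 0; for the averaged complement effect and that with Sry, every alternative run gave 0. Array weights gave XY- replicate 2 little weight and called 4361 probe sets over the whole array for the averaged Sry effect. Of the 17925 tested they called 1320 for the Sry effect in XX, 1477 for XX minus XY- without Sry and 1272 for the interaction. In the main fit these counts were 1176, 133, 14 and 232. The cause of these changes was not tested.

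Sample numbers recur across groups. Same-numbered samples correlated from -0.083 to 0.306 in their deviations (18 pairs), and different-numbered samples from -0.3325 to 0.2532 (36 pairs). These ranges overlap and do not settle whether the numbers pair the samples, and the main fit treated the samples as unpaired. With the replicate block 17 members were called for the averaged Sry effect and 10 in XY-, and 0 in the other comparisons.

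For the 19 members called for the averaged Sry effect and the 10 called in XY-, 642 differences were recomputed under alternatives: 412 kept direction and call, 230 kept direction and lost the call, and 0 reversed. Members that were not called were not followed singly. With 3 arrays a group, the 95% interval of the Sry effect in XX included 0 for 34 of the 44 members.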

Other observations

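The mitosis genes leaned toward XY- in the comparison of the complements. Averaged over Sry, all 32 tested mitosis genes had a lower mean in XX than in XY-, with a median of -0.06 (range -0.148 to -0.020), and this held in 32 of 32 with median centring and with quantile normalization. Over all probe sets tested 54.7% had a higher mean in XX. Of the 44 replication genes 30 did, with a median of 0.02 whose direction turned over the alternatives (-0.0067 to 0.045), and with Sry 30 of the 44 leaned toward XY- too. None of the 32 passed in limma, and 2 had an unadjusted p under 0.05. By array, the mean over the mitosis genes was -0.114, -0.068 and -0.085 in XX, -0.025, 0.075 and 0.009 in XXsry, 0.046, 0.016 and -0.156 in XY-, and -0.001, 0.157 and 0.147 in XY-sry. XY- replicate 3 was the lowest array for both lists. The difference between the lists was not tested.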
